A study of Mus musculus with 12 samples.

Results

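The collagen genes were followed through 3 cultured adipocyte models and mouse fat tissue. Every gene whose symbol in the array's annotation had the form Col, a number, the letter a and a number was taken, which gave 44 of the 19938 genes measured. They were read from 46 probe sets, the groups of short probes that report a gene, and where a gene had several the one with the highest mean over the 12 arrays was used. By the known build of their proteins, 11 were fibrillar, 8 belonged to basement membranes and 25 to other classes.

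RNA was measured on Affymetrix whole-transcript arrays in 4 groups of 3 samples, described as biological triplicates. The 3T3-L1 group was adipocytes differentiated from 3T3-L1, an established mouse preadipocyte line. The PMEF group was adipocytes differentiated from primary mouse embryonic fibroblasts, and the ES group adipocytes differentiated from mouse embryonic stem cells. The eWAT group was epididymal white adipose tissue, the fat pad beside the testis, taken from healthy wild-type mice. The sources used here did not give the strain and age of the mice, any pooling of animals, the media or the days of differentiation. The question was how far each model resembles the tissue. Values are log2 intensities as deposited, so a difference of 1 is a 2-fold difference, and a level is compared only with the same gene's level in another group.

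Collagens are triple helices wound from chains that separate genes encode. Fibrillar collagens assemble into the ropes of connective tissue, in which type I is the bulk, type III and type V are copolymerised with it, and type V starts and limits the fibril. Type IV collagen forms the sheet of the basement membrane, and each mature adipocyte is wrapped in one. Type VI collagen forms beaded microfibrils that link that sheet to the fibrils, and it is abundant in fat.

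All arrays carried adipocyte transcripts. The means of Adipoq, the adipokine adiponectin, were 11.49 in 3T3-L1, 11.99 in PMEF, 12.21 in ES and 12.44 in eWAT, and those of Plin1, the lipid droplet coat protein perilipin, were 10.87, 11.18, 11.78 and 12.01 in the same order. The eWAT arrays also carried endothelial genes, at a list mean of 9.23 to 9.57 against 5.23 to 5.58 in the cultures, and macrophage genes, at 9.38 to 10.39 against 5.27 to 6.34. Of the 7 macrophage genes, 6 were lower in 3T3-L1 than in eWAT and 1, Cd68, was higher, at 10.42 against 9.49. All 7 were lower in PMEF and in ES. Of all genes, 22.5% were lower and 30.8% higher than eWAT in 3T3-L1, and 21.6% were lower in PMEF and 20.9% in ES. In bulk RNA, fewer cells of a type and less RNA per cell cannot be told apart. The 3T3-L1 arrays had lower medians over all genes (6.11 to 6.12) than the other 9 (6.31 to 6.35), and differences involving 3T3-L1 depend on how that offset is treated.

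Differences were tested with limma on all 12 arrays, with Benjamini-Hochberg adjustment over all 19938 genes, and a gene is said to have risen or fallen where its adjusted p was below 0.05. Errors of differences are standard errors. The 3 comparisons with tissue share the eWAT arrays.

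PMEF adipocytes had the highest mean of the 4 groups for 37 of the 44 collagens (84.1%, against 27.0% of all genes). Against eWAT, 29 collagens rose in PMEF and 1 fell, where 24.7% of all genes rose and 21.6% fell (46.3% in all). In 3T3-L1, 8 rose and 10 fell against eWAT, where 30.8% of all genes rose and 22.5% fell (53.3% in all). In ES, 12 rose and 5 fell, where 28.8% and 20.9% did (49.7% in all). Differences of at least 2-fold were found for 12 collagens higher and none lower in PMEF, where 4.92% and 5.46% of all genes were. In 3T3-L1 they were found for 2 higher and 4 lower, where 6.05% and 8.49% of all genes were. In ES they were found for 2 higher and none lower, where 4.39% and 5.86% were. The median collagen stood 0.38 above eWAT in PMEF, 0.03 below it in 3T3-L1 and 0.05 above it in ES, while the median over all genes was 0.05, 0.05 and 0.04 above.

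The split in 3T3-L1 turned on the scaling of the arrays. Centring each array on its median gave 18 collagens higher and 9 lower than eWAT, and centring on 8 reference genes gave 4 higher and 37 lower, with the median of all genes at 0.26 and -0.41. Of all genes, 68.2% and 81.2% passed in those settings, and of those that passed 77.1% and 15.8% were higher in 3T3-L1. The split in ES was 7 higher and 12 lower on the reference genes, with the median of all genes at -0.14. There 54.5% of all genes passed, and of those that passed 34.1% were higher in ES.

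The models also differed from each other. PMEF exceeded 3T3-L1 in 34 collagens and was lower in 1, where 22.3% of all genes were higher and 27.8% lower (50.1% in all). That split was 26 to 1 after quantile normalization, 22 to 3 on array medians and 43 to 1 on the reference genes, with the median of all genes at -0.07, -0.21 and 0.45. Of all genes, 50.2%, 60.2% and 81.8% passed in those settings, and of those that passed 39.1%, 23.6% and 85.5% were higher in PMEF. At least 2-fold, 12 collagens were higher in PMEF and none lower, where 7.32% and 5.21% of all genes were. ES exceeded 3T3-L1 in 17 and was lower in 4, where 20.4% and 23.0% were (43.4% in all). This split was 15 to 9 after quantile normalization, 11 to 11 on array medians and 33 to 2 on the reference genes. The median of all genes was then -0.07, -0.23 and 0.26. Of all genes, 46.9%, 60.3% and 61.8% passed in those settings, and of those that passed 42.4%, 21.7% and 82.1% were higher in ES. At least 2-fold, 6 collagens were higher in ES and none lower, where 5.33% and 2.81% of all genes were. ES was above PMEF in 4 and below it in 30, where 23.6% and 19.0% of all genes were (42.6% in all). At least 2-fold, none were higher and 11 lower, where 2.54% and 4.17% of all genes were.

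**Figure D1:**
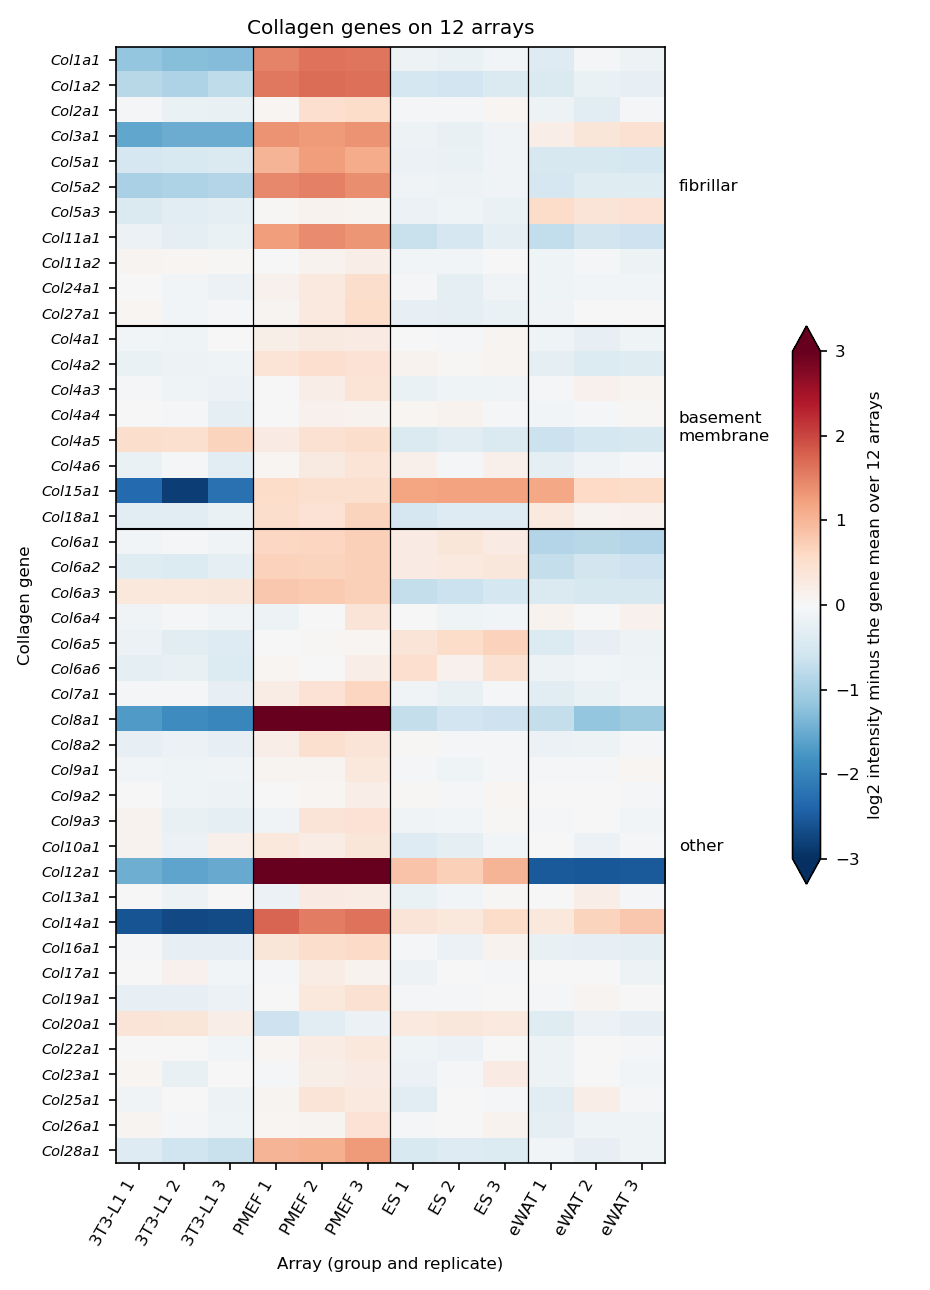
Log2 level of each of the 44 collagens (lines, grouped by class) on each of the 12 arrays (columns, grouped by model or tissue), shown as the difference from that gene's mean over the arrays, with the colour scale ending at 3 in each direction. The mean of the 3 PMEF columns is the highest of the 4 groups for 37 of the 44 genes, and the strongest contrasts are those of Col8a1, Col12a1, Col14a1 and Col15a1.

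Of the 44, 24 (54.5%) were higher in PMEF than in each other group, against 8.47% of all genes. For 9 of them each of the 3 differences was at least 2-fold: Col1a1, Col1a2, Col5a1, Col5a2, Col8a1, Col11a1, Col12a1, Col14a1 and Col28a1, where 2.1% of all genes met that rule. 3T3-L1 was lower than each other group in 8 (18.2%, against 8.63% of all genes), of which Col1a1, Col3a1, Col14a1 and Col15a1 were at least 2-fold lower (2.63% of all genes). On the reference genes the count of 8 was 29, with 40.1% of all genes.

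Group means of 29 collagens spanned less than 1 log2 unit, and those of 15 spanned 1 or more. The files gave no detection calls, so it was not known which of the dimmer collagens were expressed at all, and small differences at low levels are uncertain. Over these 29, the median level was 6.2, 6.48 and 6.61 on the 3 PMEF arrays and 6.22, 6.42 and 6.17 on the eWAT arrays, which overlap. Gene by gene, 15 of the 29 were higher and 1 lower in PMEF than in eWAT, with a median difference of 0.29. Of all genes, 24.7% were higher and 21.6% lower, with a median of 0.05.

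Among the fibrillar collagens, PMEF stood above every other group in the genes of types I, III and V with 1 exception. Against eWAT, 10 of 11 fibrillar genes rose and 1 fell in PMEF, 1 rose and 5 fell in 3T3-L1, and 2 rose and 3 fell in ES. Over all genes, 24.7% rose and 21.6% fell in PMEF, 30.8% and 22.5% in 3T3-L1, and 28.8% and 20.9% in ES. The median fibrillar differences were 1.0, 0.01 and 0.05. PMEF exceeded 3T3-L1 in 10 and ES in 10 of the 11. Of all genes, 22.3% were higher in PMEF than in 3T3-L1 and 19.0% lower in ES than in PMEF. The 10 calls against 3T3-L1 were 9 after quantile normalization and 11 on the reference genes, where 50.2% and 81.8% of all genes passed.

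Col1a1 encodes the chain present as a pair in each type I helix. Its log2 levels were 9.53, 9.41 and 9.39 in 3T3-L1, 12.17, 12.31 and 12.28 in PMEF, 10.53, 10.49 and 10.59 in ES, and 10.30, 10.63 and 10.53 in eWAT. The ES and eWAT arrays overlapped, all PMEF arrays lay above them and all 3T3-L1 arrays below. PMEF exceeded eWAT by 1.77 ± 0.09 (adjusted p = 1.53e-09, limma), 3T3-L1 fell by 1.04 ± 0.09 (adjusted p = 2.08e-07), and ES differed by 0.05 with a 95% interval of -0.14 to 0.24.

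Col1a2, the partner chain of type I, read 9.39, 9.31 and 9.47 in 3T3-L1, 11.82, 11.90 and 11.87 in PMEF, 9.71, 9.66 and 9.79 in ES, and 9.79, 10.03 and 9.99 in eWAT. PMEF lay 1.93 ± 0.08 above eWAT, a 3.8-fold difference, and 3T3-L1 fell by 0.55 ± 0.08. ES fell by 0.22 (adjusted p = 0.033), a call lost without ES array 1 (0.0819), ES array 2 (0.108), eWAT array 2 (0.122) or eWAT array 3 (0.0979), and with only the ES and eWAT arrays in the fit (0.0669).

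Col3a1, the single chain of type III collagen, separated all 4 groups. Its levels were 8.20, 8.27 and 8.27 in 3T3-L1, 11.12, 11.04 and 11.12 in PMEF, 9.61, 9.55 and 9.66 in ES, and 9.96, 10.12 and 10.22 in eWAT. No arrays of different groups overlapped. The gene was 1.0 ± 0.08 above eWAT in PMEF, 0.49 below in ES and 1.85 ± 0.08 below in 3T3-L1, so that PMEF and 3T3-L1 stood 7.19-fold apart.

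The type V chains did not move as a unit. Col5a2 read 6.84, 6.88 and 6.93 in 3T3-L1, 9.24, 9.32 and 9.20 in PMEF, 7.69, 7.65 and 7.69 in ES, and 7.30, 7.43 and 7.45 in eWAT. It rose by 1.86 ± 0.07 in PMEF and by 0.28 in ES, and fell by 0.51 in 3T3-L1, all against eWAT. Col5a1, its usual partner, read 7.23, 7.28 and 7.31 in 3T3-L1 and 7.27, 7.27 and 7.21 in eWAT, which overlapped, against 8.76, 8.99 and 8.85 in PMEF and 7.56, 7.54 and 7.64 in ES. PMEF was 1.61 ± 0.07 and ES 0.33 ± 0.07 above eWAT in Col5a1. On the reference genes the ES differences were 0.10 (adjusted p = 0.305, limma) in Col5a2 and 0.15 (0.147) in Col5a1.

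Col5a3, the less common type V chain, was the exception, and the only collagen higher in eWAT than in each model, as were 10.7% of all genes. It read 7.85, 7.67 and 7.72 in eWAT, 7.33, 7.40 and 7.37 in PMEF, 7.12, 7.16 and 7.09 in ES, and 6.86, 6.95 and 7.0 in 3T3-L1. It fell by 0.39 in PMEF, 0.63 in ES and 0.81 in 3T3-L1 against eWAT, each ± 0.07.

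Col11a1, a type XI chain typical of cartilage, read 8.03, 8.21 and 8.10 in PMEF, 6.61, 6.52 and 6.58 in 3T3-L1, 6.12, 6.29 and 6.49 in ES, and 6.04, 6.24 and 6.16 in eWAT. ES and eWAT overlapped. PMEF was 1.96 ± 0.09 above eWAT, and 3T3-L1 0.42 ± 0.09 above it, a difference that was -0.04 (adjusted p = 0.749, limma) with the arrays centred on the reference genes. The list of 8 chondrocyte markers had means of 5.18 to 5.29 on the PMEF arrays, 5.04 to 5.17 on 3T3-L1, 4.87 to 4.93 on ES and 4.80 to 4.82 on eWAT. Acan, the cartilage proteoglycan, had group means between 4.72 and 5.08. Sox9 had means of 8.21 in 3T3-L1, 7.06 in PMEF, 7.0 in ES and 6.14 in eWAT. Against eWAT, 7 of the 8 rose and none fell in PMEF, where 24.7% and 21.6% of all genes did. In 3T3-L1 2 rose and 1 fell, where 30.8% and 22.5% did, and in ES 2 rose and 1 fell, where 28.8% and 20.9% did. The part of these markers in the result was not tested.

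The remaining fibrillar genes moved little. In PMEF, Col2a1, the main cartilage collagen, was 0.55 ± 0.12 above eWAT, Col24a1 0.42 and Col27a1 0.35, and Col11a2 was 0.21 above with an adjusted p of 0.0256 (limma) that rose to between 0.0548 and 0.106 in 6 of 22 alternative settings. None of these 4 passed in 3T3-L1 or ES against eWAT.

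**Figure D2:**
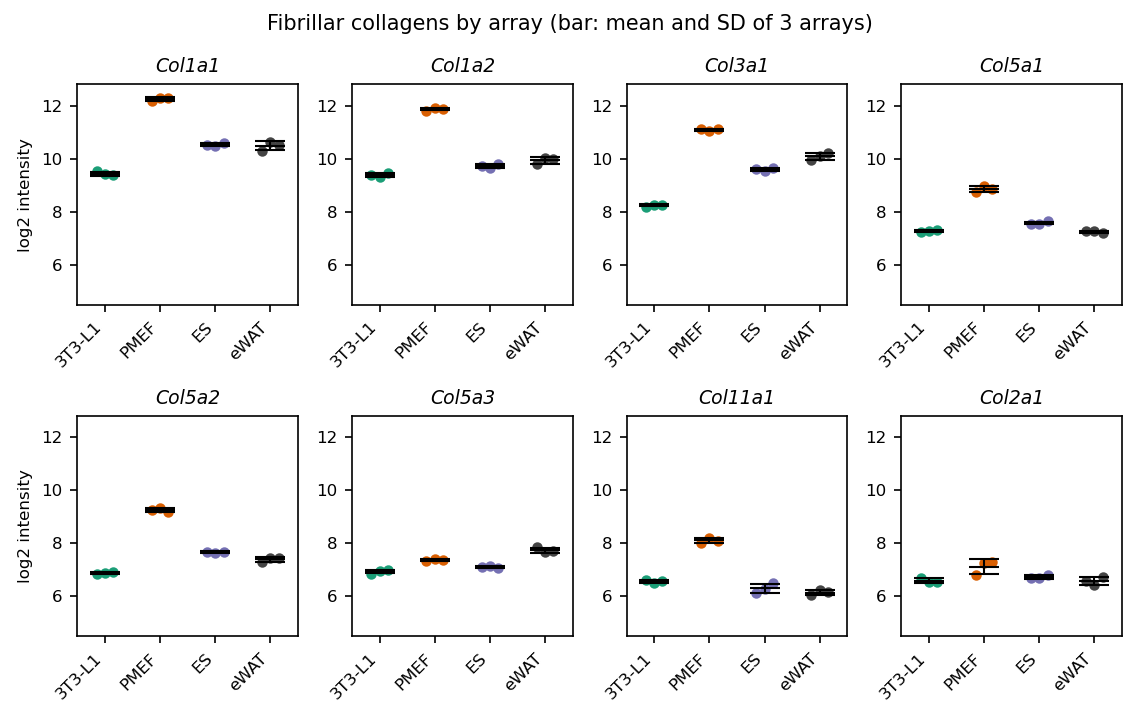
Log2 intensity of 8 of the 11 fibrillar collagens on each array, 1 panel a gene, with each point an array and bars for the mean and SD of 3 arrays. The PMEF points lie above the others in Col1a1, Col1a2, Col3a1, Col5a1, Col5a2 and Col11a1, and the eWAT points are the highest in Col5a3.

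The stretches of genome before the starts of Col1a2 and Col3a1 are shown because the 2 genes shared their order PMEF, eWAT, ES, 3T3-L1 while their promoters differ in make-up. Col9a1, Col14a1, Col19a1 and Col28a1 had the same order of means. Each stretch is the 250 bases before the RefSeq start in GRCm38.p6, 5′ to 3′ on the gene's strand. Capitals mark promoter motifs searched on either strand. The CCAAT box is the letters CCAAT. The TATA box was searched as TATAAA. The GC box was searched as GGGCGG, which reads CCGCCC from the other strand. Col1a2 lies at chr6:4505368-4505617 (plus strand) and Col3a1 at chr1:45311288-45311537 (plus strand).
Col1a2: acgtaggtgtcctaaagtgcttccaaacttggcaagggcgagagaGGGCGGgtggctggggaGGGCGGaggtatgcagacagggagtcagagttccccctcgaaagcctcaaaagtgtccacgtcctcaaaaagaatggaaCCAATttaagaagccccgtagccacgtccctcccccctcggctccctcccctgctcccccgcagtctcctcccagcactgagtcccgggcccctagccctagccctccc
Col3a1: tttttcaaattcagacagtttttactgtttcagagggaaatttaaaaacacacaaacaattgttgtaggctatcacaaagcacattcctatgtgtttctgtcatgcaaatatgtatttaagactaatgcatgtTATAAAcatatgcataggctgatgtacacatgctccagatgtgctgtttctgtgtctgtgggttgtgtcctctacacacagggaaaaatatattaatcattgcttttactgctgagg
The Col1a2 stretch was 62.0% G and C and held 1 CCAAT box and 2 GC boxes, and the Col3a1 stretch was 35.2% G and C and held 1 TATA box, where the median over all windows was 52.4%. Of 32851 windows of that length, 33.8% held a CCAAT box, 12.4% a TATA box and 32.7% a GC box. Of the 38 windows found for 35 of the collagens, 34.2%, 13.2% and 57.9% did. The TATAAA of Col3a1 lay 117 to 112 bases before the start. A match is a run of letters and not a shown binding site. Col3a1 is also the neighbour of Col5a2 among protein-coding genes in that assembly.

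The basement membrane collagens differed less, apart from Col15a1. Against eWAT, 5 of 8 rose and none fell in PMEF (0 also at an unadjusted p below 0.05 in limma), with 2 up and 2 down in 3T3-L1 and 3 up and 1 down in ES. The all-gene shares up and down were 24.7% and 21.6% in PMEF, 30.8% and 22.5% in 3T3-L1, to which 2 and 2 of 8 are close, and 28.8% and 20.9% in ES. The medians were 0.37, -0.07 and 0.16. In 3T3-L1, the 2 that rose were type IV chains, and the 2 that fell were Col15a1 and Col18a1. The ES count of 4 was 2 without ES array 1, ES array 3 or eWAT array 2.

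Col4a1 and Col4a2 encode the chains of the common type IV helix and start 21 bases apart on opposite strands in RefSeq. Col4a2 read 8.90, 8.95 and 8.97 in 3T3-L1, 9.52, 9.60 and 9.54 in PMEF, 9.21, 9.14 and 9.20 in ES, and 8.82, 8.69 and 8.74 in eWAT. It was lowest in eWAT, with PMEF 0.81 ± 0.06 and ES 0.44 ± 0.06 above. 3T3-L1 was 0.19 above (adjusted p = 0.0207, limma), which was 0.05 after quantile normalization and -0.27 on the reference genes, and lost its call without 3T3-L1 array 2 (0.06), 3T3-L1 array 3 (0.0654) or eWAT array 2 (0.0696). Col4a1 read 9.03, 8.99 and 9.11 in 3T3-L1, 9.30, 9.39 and 9.37 in PMEF, 9.11, 9.09 and 9.20 in ES, and 8.98, 8.88 and 8.99 in eWAT. Only PMEF was clear of the tissue there in all 22 alternatives, by 0.40 ± 0.07.

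Col4a5 and Col4a6, a second head-to-head pair that starts 1343 bases apart on the X chromosome, behaved differently from each other. Col4a5 read 6.92, 6.87 and 7.05 in 3T3-L1, 6.64, 6.85 and 6.91 in PMEF, 5.96, 6.05 and 5.95 in ES, and 5.74, 5.87 and 5.91 in eWAT. The 3T3-L1 and PMEF arrays overlapped, and exceeded eWAT by 1.11 ± 0.09 and 0.96 ± 0.09, while the ES difference was 0.14 with a 95% interval of -0.04 to 0.33. Col4a6 rose by 0.38 ± 0.11 in PMEF, while its differences of -0.06 in 3T3-L1 and 0.23 in ES did not pass. Col4a3 and Col4a4, chains known from the kidney, did not pass against eWAT in any model, with differences from -0.20 to 0.14, and 1 of these 6 comparisons had an unadjusted p below 0.05 in limma.

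Col15a1 encodes a collagen that bridges basement membranes to the fibrils beside them. It read 6.48, 6.0 and 6.57 in 3T3-L1, 9.38, 9.30 and 9.31 in PMEF, 10.01, 10.02 and 10.02 in ES, and 9.97, 9.41 and 9.37 in eWAT. 3T3-L1 was far below all others and fell by 3.23 ± 0.16 against eWAT (9.4-fold, adjusted p = 7.93e-10, limma). PMEF and eWAT overlapped, with a difference of -0.25 (95% interval -0.59 to 0.08). ES was 0.43 above eWAT (adjusted p = 0.0337), which was lost without ES array 1 (0.0689), 2 (0.0743) or 3 (0.0728), without eWAT array 2 (0.13) or 3 (0.138), and on the reference genes (0.182).

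Col18a1, whose end fragment is endostatin, read 7.84, 7.75 and 7.99 in PMEF, 7.62, 7.43 and 7.44 in eWAT, 6.99, 6.97 and 7.13 in 3T3-L1, and 6.82, 6.93 and 6.94 in ES. It was 0.36 above eWAT in PMEF, and fell by 0.47 in 3T3-L1 and 0.60 in ES. Endothelial cells, whose markers were found in eWAT far above the cultures, also make basement membrane collagens, and their part in these levels was not tested.

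**Figure D3:**
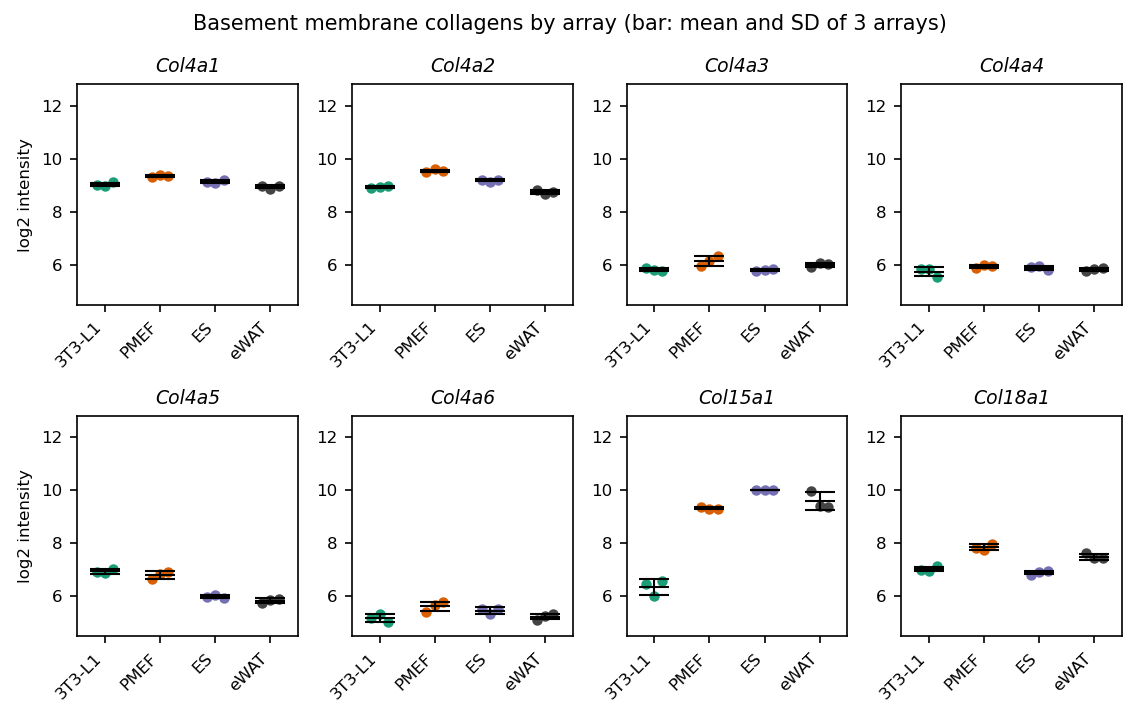
Log2 intensity of the 8 basement membrane collagens, drawn as for the fibrillar genes, with points for arrays and bars for the mean and SD of 3 arrays. Col15a1 has its 3T3-L1 points between 6.0 and 6.57 and all others between 9.30 and 10.02, and Col4a5 has its 3T3-L1 and PMEF points above those of ES and eWAT.

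In the other classes, the largest differences lay in the fibril-associated collagens Col12a1 and Col14a1 and the network-forming Col8a1. Against eWAT, 14 of 25 rose and none fell in PMEF (0 also unadjusted), 5 rose and 3 fell in 3T3-L1, and 7 rose and 1 fell in ES. Of all genes, 24.7% rose in PMEF, 30.8% in 3T3-L1 and 28.8% in ES, so the count of risen genes was near that background in ES and not above it in 3T3-L1, and 21.6%, 22.5% and 20.9% fell. The medians were 0.30, -0.03 and 0.03. In 3T3-L1 the 8 calls became 13 when medians were aligned and 23 when the reference genes were, where 68.2% and 81.2% of all genes passed. As deposited, 53.3% of all genes passed.

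The chains of type VI collagen were higher in culture than in tissue for 2 of the 3 main chains. Col6a1 read 9.82, 9.84 and 9.79 in 3T3-L1, 10.53, 10.55 and 10.62 in PMEF, 10.16, 10.26 and 10.14 in ES, and 9.03, 9.07 and 9.02 in eWAT, with no overlap. It exceeded eWAT by 0.78, 1.53 and 1.14 in 3T3-L1, PMEF and ES, each ± 0.06. Col6a2, its neighbour in the genome, read 9.59, 9.54 and 9.70 in 3T3-L1, 10.64, 10.63 and 10.67 in PMEF, 10.20, 10.26 and 10.31 in ES, and 9.25, 9.40 and 9.33 in eWAT. It exceeded eWAT by 0.28, 1.32 and 0.93, each ± 0.07, though the 3T3-L1 difference was -0.18 on the reference genes and 0.16 (adjusted p = 0.0595, limma) after quantile normalization.

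Col6a3, the long chain whose cut end is the fragment endotrophin, followed another order. It read 10.93, 10.91 and 10.94 in 3T3-L1, 11.41, 11.39 and 11.33 in PMEF, 9.89, 9.97 and 10.07 in ES, and 10.18, 10.12 and 10.12 in eWAT. It rose by 0.79 in 3T3-L1 and 1.23 in PMEF, while ES was 0.16 below eWAT (adjusted p = 0.0504, limma). ES was also 0.95 ± 0.06 below 3T3-L1 in this gene, while it was above 3T3-L1 in Col6a1 and Col6a2, by 0.37 and 0.65.

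Of the minor type VI chains, Col6a5 read 6.48, 6.65 and 6.78 in ES, above 6.08 to 6.15 in PMEF, 5.70 to 5.92 in 3T3-L1 and 5.69 to 5.95 in eWAT, with ES 0.81 ± 0.09 above eWAT. Its other probe set gave 2.59 ± 0.13 for that difference, so the size depends on the probe set. Col6a6 was 0.48 ± 0.10 above eWAT in ES, and Col6a5, Col6a6 and Col15a1 were the 3 collagens higher in ES than in each other group, as were 6.15% of all genes. For Col6a6 this rests on a difference from PMEF of 0.27 (adjusted p = 0.0406, limma) between arrays that overlap. That call was lost in 10 of 22 alternatives, among them quantile normalization (0.0796), the reference genes (0.354) and the fits without 3T3-L1 array 1 (0.051), PMEF array 1 (0.0843) or 2 (0.141), ES array 1 (0.172) or 3 (0.137), or eWAT array 3 (0.0502). Col6a4 differed from eWAT by -0.18 to 0.00 and did not pass.

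Col12a1, a fibril-associated collagen of dense tissue such as tendon and fascia, gave the largest difference of the family from tissue. It read 5.77, 5.75 and 5.78 in eWAT, 6.84, 6.71 and 6.78 in 3T3-L1, 9.16, 9.02 and 9.31 in ES, and 11.58, 11.57 and 11.34 in PMEF. The 4 groups did not overlap. It exceeded eWAT by 1.01 ± 0.09 in 3T3-L1, by 3.40 ± 0.09 in ES and by 5.73 ± 0.09 in PMEF (53.1-fold, adjusted p = 5.09e-14, limma). It was the only collagen at least 2-fold lower in eWAT than in each model, as were 0.667% of all genes. The 3T3-L1 difference of 1.01 lay close to that mark. It ranged from 0.55 to 1.22 over the 22 alternatives, so the mark was not met in all of them. Lower in eWAT than in each model without regard to size were 4 collagens, Col4a2, Col6a1, Col6a2 and Col12a1, as were 10.3% of all genes.

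Col14a1, a fibril-associated collagen that binds fibril surfaces, read 9.62, 9.39 and 9.49 in PMEF, 8.26, 8.18 and 8.42 in ES, 8.17, 8.54 and 8.67 in eWAT, and 5.28, 5.16 and 5.17 in 3T3-L1. ES and eWAT overlapped. 3T3-L1 fell by 3.26 ± 0.12 against eWAT (9.56-fold) and PMEF was 1.04 ± 0.12 above. Col20a1, of the same class, was 0.56 ± 0.11 above eWAT in ES and 0.57 ± 0.11 in 3T3-L1, the latter 0.11 (adjusted p = 0.353, limma) on the reference genes. It was the collagen in which PMEF fell below 3T3-L1, by 0.70 ± 0.11.

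Col8a1, a short-chain collagen of vessel walls and the cornea, read 10.92, 11.02 and 10.72 in PMEF, 6.71, 6.85 and 6.81 in ES, 6.72, 6.27 and 6.37 in eWAT, and 5.72, 5.53 and 5.48 in 3T3-L1. PMEF stood 4.43 ± 0.12 above eWAT (21.6-fold, adjusted p = 4.49e-12, limma) and 3T3-L1 0.88 ± 0.12 below. ES overlapped eWAT and was 0.34 above it (adjusted p = 0.027), which was lost without ES array 2 (0.0821), ES array 3 (0.069), eWAT array 2 (0.122) or eWAT array 3 (0.0897), and on the reference genes (0.16, adjusted p = 0.256). Its network relatives Col8a2 and Col10a1, the latter known from growth plate cartilage, rose by 0.49 ± 0.08 and 0.38 ± 0.10 in PMEF against eWAT.

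Col28a1 read 6.62, 6.66 and 6.87 in PMEF, 5.52, 5.36 and 5.46 in eWAT, 5.13, 5.22 and 5.19 in ES, and 5.20, 5.01 and 4.93 in 3T3-L1. PMEF was 1.27 ± 0.09 above eWAT. Col16a1, fibril-associated, was 0.73 ± 0.09 and Col7a1, the anchoring fibril collagen, 0.63 ± 0.10 above eWAT in PMEF. None of the transmembrane collagens Col13a1, Col17a1, Col23a1 and Col25a1 passed against eWAT in any model, nor did the cartilage genes Col9a1, Col9a2 and Col9a3 or the fibril-associated Col19a1. At an unadjusted p below 0.05 in limma, 1 of the 12 transmembrane comparisons and 3 of the other 12 would have passed, 2 of those 3 in Col19a1. Col26a1 was 0.37 and Col22a1 0.26 above eWAT in PMEF. The Col22a1 call was lost without PMEF array 3 (0.0757) or eWAT array 1 (0.0582).

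**Figure D4:**
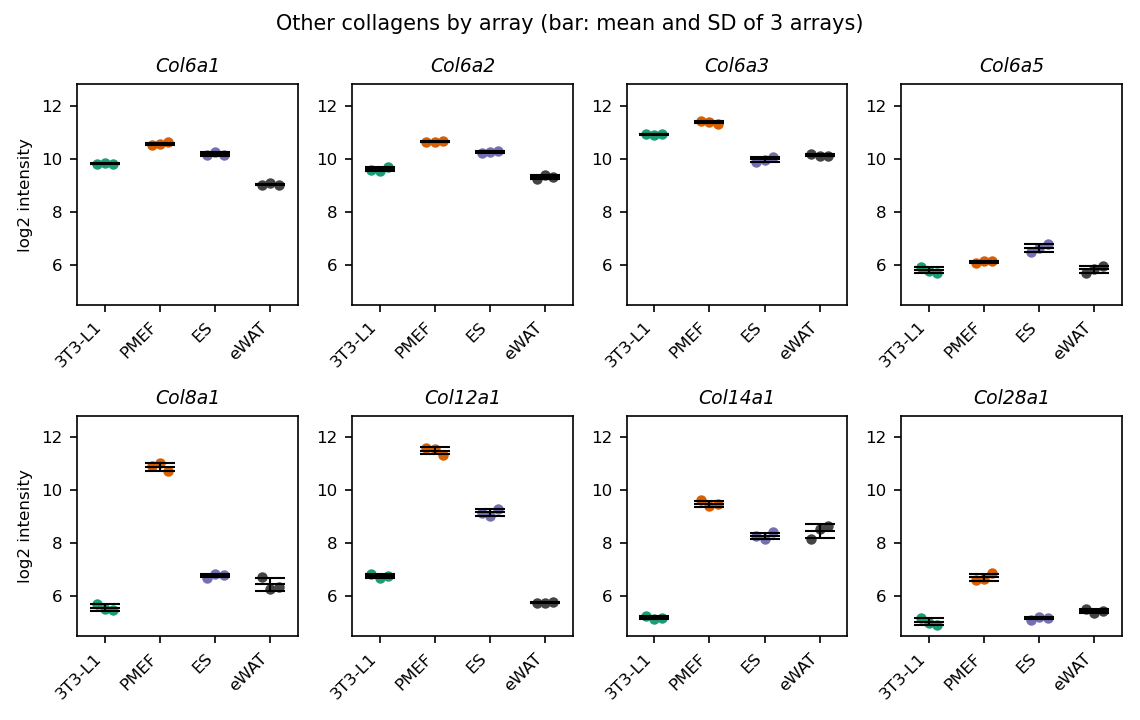
Log2 intensity of 8 of the 25 collagens of other classes, with points for arrays and bars for the mean and SD of 3 arrays. Col12a1 rises without overlap from eWAT to 3T3-L1, ES and PMEF, and Col8a1 has its PMEF points between 10.72 and 11.02 and all others at or below 6.85.

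The stretches before Col6a1 and Col8a1 are shown as those of a gene above eWAT in all 3 cultures and of a gene with its largest excess in PMEF. They are read as above, from chr10:76726045-76726294 (minus strand) and chr16:57754738-57754987 (minus strand) of GRCm38.p6.
Col6a1: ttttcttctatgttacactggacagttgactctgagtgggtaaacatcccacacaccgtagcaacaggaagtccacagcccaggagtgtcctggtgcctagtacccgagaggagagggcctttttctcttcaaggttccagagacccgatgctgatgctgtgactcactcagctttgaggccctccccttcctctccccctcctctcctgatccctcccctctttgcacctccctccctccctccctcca
Col8a1: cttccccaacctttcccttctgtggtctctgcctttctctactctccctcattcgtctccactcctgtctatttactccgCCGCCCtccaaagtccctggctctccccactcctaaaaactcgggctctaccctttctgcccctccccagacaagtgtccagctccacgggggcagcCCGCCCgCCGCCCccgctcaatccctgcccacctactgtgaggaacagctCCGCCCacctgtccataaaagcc
Col8a1 held 4 GC boxes, all on the opposite strand, with 60.8% G and C. Col6a1 held none of the 3 motifs, with 56.0% G and C.

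**Figure D5:**
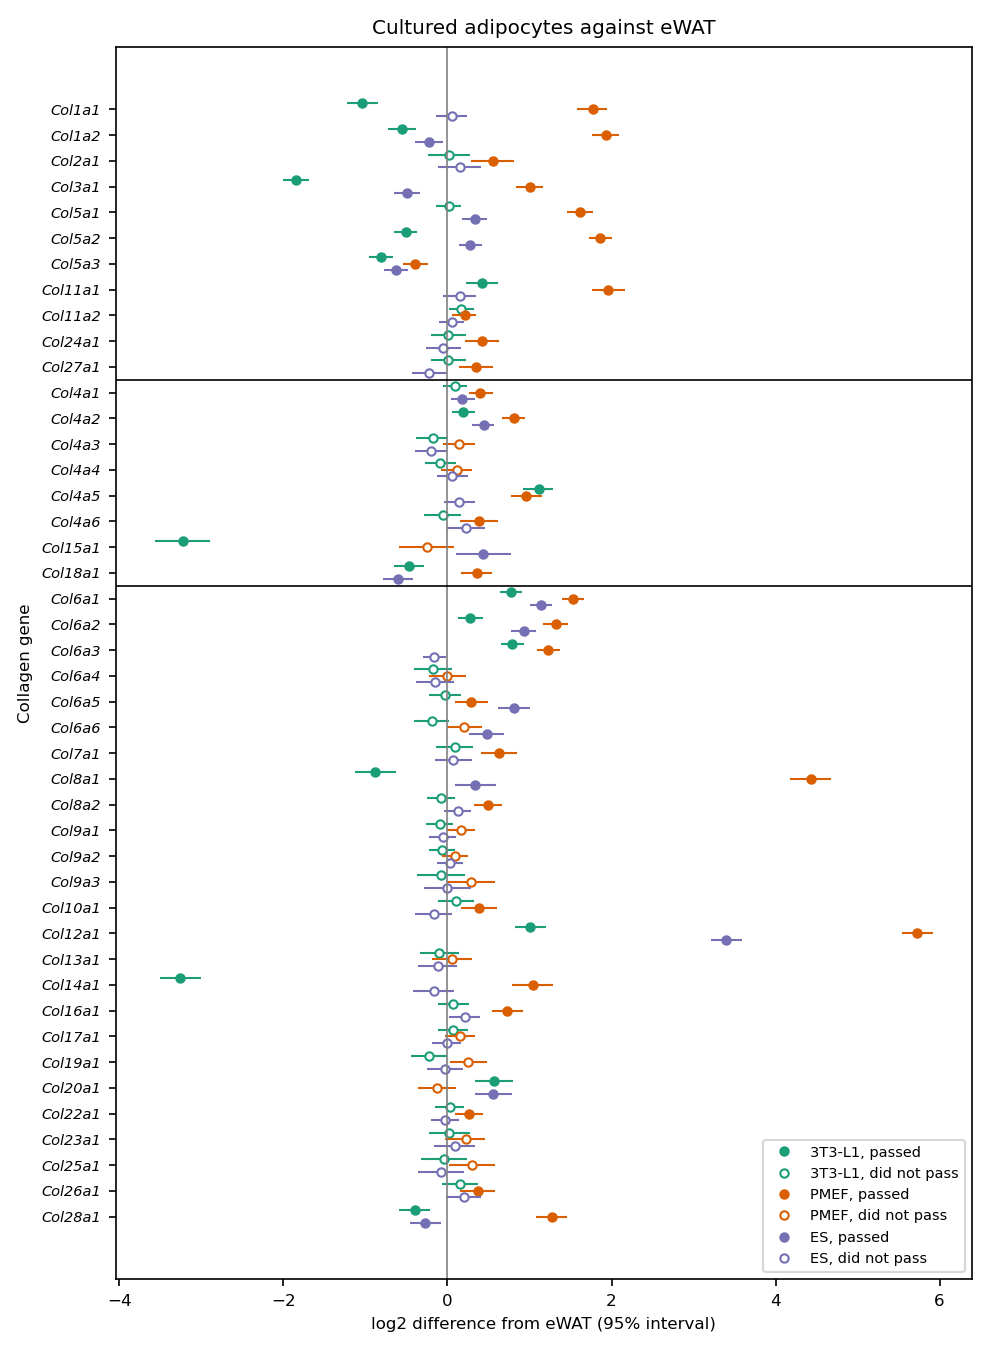
Log2 difference of each collagen from eWAT in 3T3-L1, PMEF and ES adipocytes, with lines for the 95% intervals, by class. PMEF reaches 5.73 in Col12a1 and 4.43 in Col8a1, while 3T3-L1 reaches -3.26 in Col14a1 and -3.23 in Col15a1.

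Marker lists of other cell types differed between the groups in several directions. Counts against eWAT here and in the next paragraph stand beside the shares of all genes. Those were 24.7% higher and 21.6% lower in PMEF, 28.8% and 20.9% in ES, and 30.8% and 22.5% in 3T3-L1. The fibroblast and stromal list (6 of 7 genes measured) had means of 6.4 to 6.47 on the 3T3-L1 arrays, 9.55 to 9.62 on PMEF, 8.0 to 8.04 on ES and 9.16 to 9.42 on eWAT. Against eWAT, 3 of its 6 genes were higher and 2 lower in PMEF, 1 was higher and 4 lower in ES, and 6 were lower in 3T3-L1. The 8 smooth muscle genes had means of 6.53 to 6.6, 8.55 to 8.8, 7.46 to 7.6 and 8.06 to 8.13 in the same order. Against eWAT, 6 were higher and 1 lower in PMEF, and 1 was higher and 4 lower in ES. In 3T3-L1, 2 were higher, Des and Mylk, and 6 were lower.

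All 7 mesothelial genes were higher than eWAT in PMEF and in ES, with list means of 7.59 to 7.68 and 7.14 to 7.22 against 5.43 to 5.65 in eWAT and 5.37 to 5.38 in 3T3-L1. The 3 tendon genes had list means of 7.01 to 7.18 on PMEF and 4.94 to 5.74 elsewhere, but they differed in size. Tnmd had a mean of 8.05 in PMEF and 4.22 to 4.38 elsewhere, and Scx 6.08 against 5.68 to 5.75. Mkx was 7.2 in PMEF, 6.89 in 3T3-L1, 6.17 in ES and 4.99 in eWAT. The list mean of the 5 pericyte genes went the other way. It was 9.01 to 9.21 on eWAT, 7.78 to 7.95 on PMEF, 6.5 to 6.59 on ES and 5.82 to 5.95 on 3T3-L1. Against eWAT, 4 of the 5 were lower in PMEF and 1, Pdgfrb, was higher, with means of 10.9 in PMEF and 9.78 in eWAT. All 5 were lower in ES and in 3T3-L1. The endothelial and macrophage list means were also highest on eWAT, though Cd68 of the macrophage list was higher in 3T3-L1. The part of such cells in the collagen levels was not tested.

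Genes that build, trim and anchor collagen were read from 6 lists, with 64 of 68 genes measured. Their counts against eWAT stand beside all-gene shares of 24.7% risen and 21.6% fallen in PMEF, 30.8% and 22.5% in 3T3-L1, and 28.8% and 20.9% in ES. The list of chain modification and folding (19 measured) had 13 higher and 2 lower than eWAT in PMEF, 12 and 4 in ES, and 9 and 6 in 3T3-L1. Plod2, which hydroxylates lysines of the chain ends, rose by 2.79 ± 0.10 in PMEF and 3.52 ± 0.10 in ES and fell by 1.13 ± 0.10 in 3T3-L1. P4ha3, a subunit of the prolyl hydroxylase that stabilises the helix, rose by 5.26 ± 0.17 in PMEF and 2.21 ± 0.17 in ES.

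Of 4 cross-linking genes, all rose in PMEF, as did 24.7% of all genes, and 2 rose and 1 fell in both 3T3-L1 and ES. Lox, the oxidase that starts cross-links, rose by 3.31 ± 0.08 in PMEF and by 2.14 ± 0.08 in ES. Of 7 trimming genes, 5 rose and 1 fell in PMEF, with 2 up and 3 down in 3T3-L1 and 2 up and 2 down in ES. In PMEF, Pcolce, an enhancer of propeptide removal, rose by 1.81 while its relative Pcolce2 fell by 2.47 ± 0.13.

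Of 10 fibril partners, 9 rose and 1 fell in PMEF, none rose (0 also unadjusted, limma) and 9 fell in 3T3-L1, and 1 rose and 5 fell in ES, with medians of 0.77, -1.40 and -0.37. Fmod, a proteoglycan of fibril surfaces, rose by 4.42 ± 0.10 in PMEF, and its relative Lum fell by 3.87 in 3T3-L1. Of 15 basement membrane partners, 8 rose and 4 fell in PMEF, 1 rose and 12 fell in 3T3-L1, and 5 rose and 8 fell in ES. The share that rose in ES was near the 28.8% of all genes. Lama1, a laminin chain of early embryos, rose by 3.22 ± 0.10 in ES. Of 9 receptors and uptake genes, 5 rose and 3 fell in PMEF, 3 rose and 5 fell in 3T3-L1, and 3 rose and 3 fell in ES, where 28.8% and 20.9% of all genes did. Itga11, a collagen-binding integrin chain, rose by 2.40 ± 0.15 in PMEF.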

How the data were processed

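RNA (300 ng a sample) was hybridised to Affymetrix arrays, per the labels' protocols. The deposited values are log2 intensities normalized by the authors; the normalization method is not given in the sources used here. Of 35556 probe sets, 21789 had a single symbol, 1621 several and 12146 none, and 21698 matched RefSeq by gene number. The brightest probe set stood for each of 999 genes with several. Groups were fitted with limma 3.58.1 (R 4.3.3), lmFit and eBayes, on 12 arrays (8 residual degrees of freedom), with 6 comparisons. The script was tested on simulated data. With 3 arrays a group, precision is limited by their number, and p-values measure the spread between these samples. No columns were identical.

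Every collagen could be named, and of each assembly list the 3 called genes with the largest rise and fall in each comparison. Members and lists were chosen with earlier results of these data known. The 22 alternatives covered scaling, filtering, probe sets, weights, a replicate block and leaving out each array. Protein sequences were not used here.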

Additional observations from a re-analysis of the deposited data

Results flagged for a closer look

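For 8 collagens, a pair of models lay on opposite sides of eWAT, each past the threshold, and the direct comparison of the models was also past it (limma, adjusted over all genes, 3 arrays a group). The comparisons with tissue share the eWAT arrays. The share of all genes with such opposite calls was not counted, so the 8 cannot be set against a background.

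PMEF stood above eWAT and 3T3-L1 below it in Col1a1, where the models differed by 2.81 ± 0.09 (adjusted p = 1.11e-11), in Col1a2 by 2.47 ± 0.08 (1.32e-11), in Col3a1 by 2.85 ± 0.08 (2.53e-12) and in Col5a2 by 2.37 ± 0.07 (4.2e-12). The same held in Col8a1, by 5.31 ± 0.12 (4.89e-13), in Col14a1, by 4.29 ± 0.12 (2.83e-12), and in Col28a1, by 1.67 ± 0.09 (2.3e-09). In Col28a1 the 3T3-L1 side was lost with arrays centred on their medians (-0.19, adjusted p = 0.0669).

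ES stood below and PMEF above eWAT in Col1a2, where ES minus PMEF was -2.14 ± 0.08 (2.88e-10), and in Col28a1, where it was -1.54 ± 0.09 (1.57e-08). The ES side was -0.22 in Col1a2 and -0.27 in Col28a1. It was lost in Col28a1 without ES array 1 (0.0718), eWAT array 1 (0.0682) or eWAT array 3 (0.0542), and in Col1a2 without ES array 1 (0.0819), ES array 2 (0.108), eWAT array 2 (0.122) or eWAT array 3 (0.0979).

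ES stood above and 3T3-L1 below eWAT in Col15a1, where ES minus 3T3-L1 was 3.67 ± 0.16 (5.18e-10). The ES side, 0.43, was lost in 6 of 22 alternatives, those that left out any ES array, eWAT array 2 or eWAT array 3 and the centring on reference genes, with adjusted p between 0.0689 and 0.182.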

How the results depend on the processing

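Of 155 calls among the 264 collagen comparisons, 114 held in all 22 alternatives and 41 were lost in at least 1; the largest difference among those lost was 0.57. The scaling of the 3T3-L1 arrays moved most. With arrays centred on their medians, the other classes had 13 calls in 3T3-L1 against eWAT, where 68.2% of all genes passed. They had 12 in PMEF against 3T3-L1, where 60.2% of all genes passed. Col5a3 in ES against 3T3-L1 turned to -0.02 in that setting. PMEF exceeded 3T3-L1 in 22 collagens and was lower in 3 there, against 34 and 1, and in 26 and 1 after quantile normalization. Of all genes, 50.1% passed as deposited and 50.2% after quantile normalization. With arrays centred on the reference genes, 3T3-L1 against eWAT had 41 calls (fibrillar 10, basement membrane 8, other 23), where 81.2% of all genes passed. ES against 3T3-L1 had 35 (basement membrane 7, other 21), where 61.8% of all genes passed. In the same setting 29 collagens, with 40.1% of all genes, were lower in 3T3-L1 than in each other group, against 8 as deposited. There Col11a1 turned to -0.04, Col4a2 to -0.27 and Col6a2 to -0.18 in 3T3-L1 against eWAT, and Col10a1 and Col11a1 to 0.01 in ES against 3T3-L1. The cause was not tested. With the 6 type IV chains alone as basement membrane, 2 calls were left in 3T3-L1 and 2 in ES against eWAT, all of them higher. The calls left out were those of Col15a1 and Col18a1. Both were lower in 3T3-L1, and in ES Col15a1 was higher and Col18a1 lower. Leaving out 1 array in turn gave 2 to 5 calls for the basement membrane class of 8 in ES against eWAT, where 44.9% to 50.6% of all genes passed. Over all alternatives, 19 to 27 collagens were higher in PMEF than in each other group, with 6.69% to 12.6% of all genes. The numbers of the replicates did not pair the samples (correlations -0.137 to 0.108), and the fit with the replicate block gave 32 calls in PMEF, 18 in 3T3-L1 and 17 in ES against eWAT, 34 in PMEF and 18 in ES against 3T3-L1, and 33 in ES against PMEF. Of all genes, 45.2%, 52.8% and 48.8% passed there against eWAT, in the same order. Against 3T3-L1 49.3% and 42.3% did, and 41.6% in ES against PMEF.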
